A study of Homo sapiens with 3 samples.

Results

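DNA replication and G1/S genes were followed in the TE5 line, established from a human squamous carcinoma of the esophagus, after knockdown of the transcription factor KLF5. The set was fixed by gene name, with earlier results of these data known, and holds 37 genes. The part of that knowledge in the comparisons with all genes below was not tested. All transcripts of a gene were summed in each library. Transcripts of 36 of the 37 were found among the 52992 genes that could be built from the tables, and UHRF1, which keeps DNA methylation through replication, was not analysed here.

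Knockdown cells were transfected with short hairpin RNA against KLF5 (shKLF5, 2 libraries) and the control cells with a scrambled sequence (scramble, 1 library), and all were harvested after 48 h. The series names KLF5, TP63 and SOX2 as factors of a circuit in this carcinoma. The labels number the shKLF5 libraries 1 and 2 without saying whether these are separate cultures or separate hairpins. The only spread behind the p-values is that between this pair, taken mostly over all genes, and it may be technical. Scramble is 1 library and is taken to vary as the pair does. Totals were 33544752 and 32720563 estimated counts in shKLF5 libraries 1 and 2, and 33448976 in scramble. Genes with at least 10 counts numbered 19304 and 19422 in the shKLF5 libraries, against 16920 in scramble, and the cause was not tested. KLF5 itself had 1333 and 1531 counts in the shKLF5 libraries, against 8402 in scramble. The squamous identity was present in the control: KRT5, the basal keratin, had 34119 and 13095 counts in the shKLF5 libraries and 142684 in scramble. The summed level of 8 squamous markers was 998 and 583 TPM (transcripts per 1000000) in the shKLF5 libraries, against 3477 TPM in scramble, and its part in the values below was not tested. Of 6 leukocyte markers the summed level was 2.36 and 3.12 TPM in the shKLF5 libraries, against 0.53 TPM in scramble, with CD3E and LYZ at 0 counts in scramble. The 3 endothelial markers found summed to 1.09 and 1.36 TPM in the shKLF5 libraries, against 0.32 TPM in scramble, and 6 fibroblast markers to 26.3 and 15.4 TPM, against 16.7 TPM, most of it COL1A1.

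DNA replication starts at origins that are licensed in G1 phase, when ORC, CDC6 and CDT1 load the ring of MCM2 to MCM7 onto DNA. At the entry to S phase, cyclin E with CDK2 releases E2F factors from the RB protein, E2F factors switch on many of the genes below, and CDC45 and GINS join the MCM ring to form the active helicase. Polymerase alpha with primase starts each strand, the RFC complex loads the PCNA clamp, polymerases delta and epsilon extend the strands, and ribonucleotide reductase and thymidylate synthase supply the nucleotides. In bulk RNA, fewer cells in S phase and less RNA per cell cannot be told apart.

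Most of the set had lower values in each shKLF5 library than in scramble. After TMM scaling, which sets each library on a common scale from the bulk of its genes, 34 of the 36 genes (94.4%) had lower counts per 1000000 (CPM) in both shKLF5 libraries. 1 gene, CDC25A, was higher in both, against 37.9% of the genes tested, and GINS3 went opposite ways. Being lower in both held for 36.5% of the 20629 genes tested, and for 50.8% of those whose mean CPM was 5 or more, a level that all 36 reached. The median log2 fold change was -0.51 over the set, 0.04 over all genes tested and -0.16 over those whose mean CPM was 5 or more. In libraries 1 and 2 taken singly the median of the set was -0.57 and -0.51. No single gene of the set passed the test: edgeR's quasi-likelihood test with Benjamini-Hochberg adjustment over the 20629 genes called 0 of the 36, and 0% of all genes, at an adjusted p under 0.05. The lowest adjusted p in the set was 0.474 by edgeR's quasi-likelihood test. At an unadjusted p under 0.05, 7 of the 36 (19.4%) were lower and 0 higher, against 3.5% lower and 5.68% higher of all genes tested and 5.08% lower of those whose mean CPM was 5 or more. DESeq2 called 116 genes and edgeR's legacy fit 21 (0.562% and 0.102% of those tested), and 0 of the 36 by either. KLF5 itself, the target of the knockdown, was not called by edgeR's quasi-likelihood test either, with a log2 fold change of -2.96 (SE 0.34). Because no gene of the set passed, the directions below are given as values and not as calls.

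The sign of these values rested on the scaling. In the deposited counts, before any scaling, 18 of the 36 were lower in both shKLF5 libraries and 5 were higher in both. The shares over all genes are not given for these counts. Scaled by library size alone, 17 of 36 (47.2%) were lower in both, against 12.5% of all genes tested. In the deposited TPM 17 were lower and 8 higher in both, against 11.3% lower of all genes, whose higher share is not given. The median log2 fold change of all genes in TPM was 0.26 after adding 1 and 0.43 after adding 0.1. Library size alone placed the median of all genes at 0.47 and that of the set at -0.077. The set thus lay 0.54 below the typical gene. A change of scaling factor shifts all genes alike, so this distance had to be the same as after TMM scaling. With an offset that removes the trend of fold change with abundance, 27 of the 36 were lower in both, against 35.4% of all genes tested. The distance of the set from the median of all genes was then -0.36. Genes encoded in mitochondria held 31.1% and 34.7% of counts in the shKLF5 libraries, against 38.1% in scramble, and with them left out of the TMM scaling 34 of the 36 were again lower in both, against 34.6% of all genes tested. The 36 genes together took 0.211% and 0.231% of all counts in the shKLF5 libraries, against 0.267% in scramble. Values below are after TMM scaling unless counts or TPM are named, and within-complex shares, which no scaling alters, are given beside them.

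**Figure D1:**
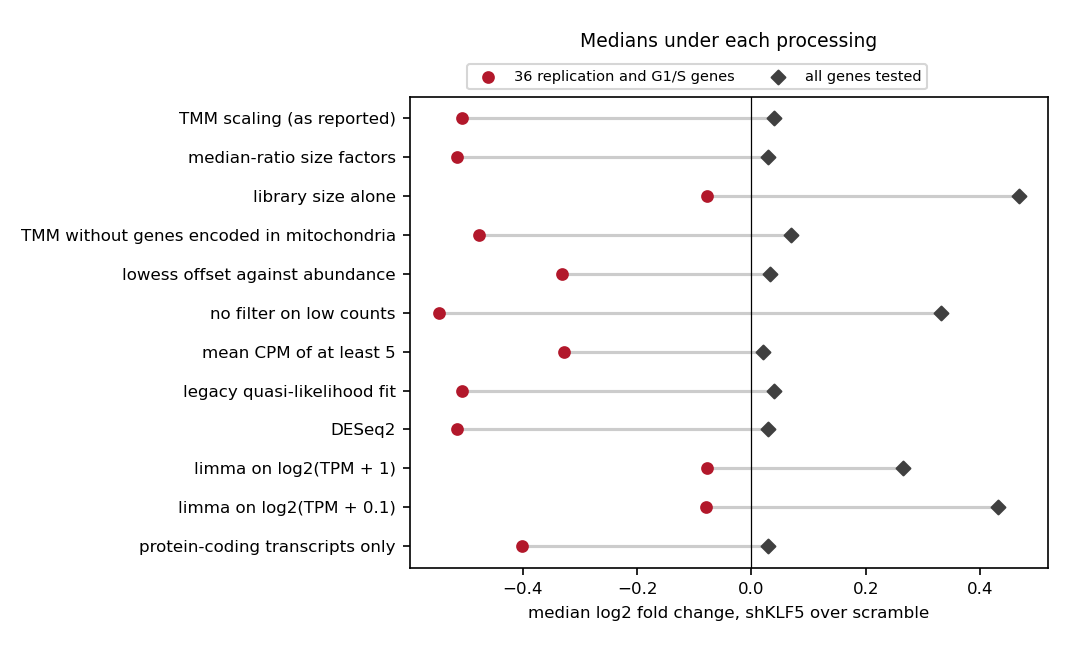
Median log2 fold change (shKLF5 over scramble, x axis) of the 36 genes (circles) and of all genes tested (diamonds) under TMM scaling and 11 other processings (y axis). The circles lie left of the diamonds in every row, while their position relative to 0 runs from -0.55 to -0.077.

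**Figure D2:**
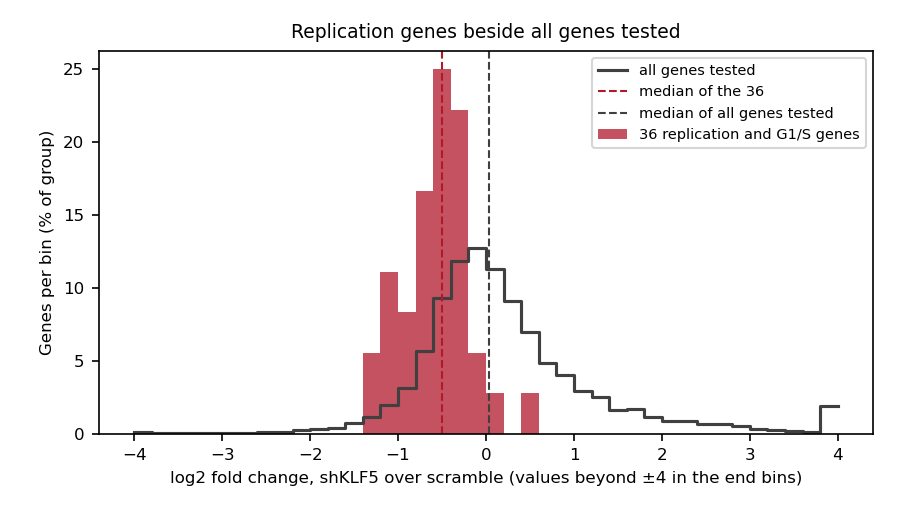
Log2 fold change (shKLF5 over scramble, x axis) of the 36 replication and G1/S genes (bars) and of all 20629 genes tested (line), as a percentage of each group per bin (y axis). The bars lie around their median of -0.51, and the line around 0.04 with a long tail on the higher side.

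Many promoters of the set held the letters that E2F factors recognise. E2F factors are known to switch on many genes of this kind, so a high share can follow from how the set was chosen. In the RefSeq promoter table (GRCh38.p14, 250 bases before to 50 bases after each gene's start), 32 of the 37 genes had an entry, and CCNE2, GINS4, MCM4, MCM5 and RPA2 are named only. The E2F letters TTTCCCGC, TTTGGCGC or TTTCGCGC, on either strand with overlaps counted, occurred in 20 of the 32 (62.5%), against 2.79% of all 27305 promoters and 4.13% of the 12565 that belong to genes tested here. The letters CCAAT occurred in 59.4% of the set, against 35.7% of all promoters, and the GC box GGGCGG in 71.9%, against 44.6% of all promoters and 65.6% of those of genes tested. TTTGAA, the letters of the CHR element known from mitotic genes, occurred in 1 of the 32 (RRM1), against 15.4% of all promoters. Among the 31 measured genes with an entry, the 19 with E2F letters had a median log2 fold change of -0.48 (from -1.26 to 0.53), and the 12 without had a median of -0.58 (from -1.07 to -0.36).

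Promoters of 4 genes are shown 5′ to 3′ along the gene, with E2F letters in capitals: MCM6, TYMS and PCNA, which were low in the shKLF5 libraries, and CDC25A, which was not. The MCM6 promoter at chr2:135876394-135876693 (minus strand) held 4 matches, on both strands, that overlap in 2 runs, the first match beginning 152 and the last 86 bases before the start of the gene. The TYMS promoter at chr18:657403-657702 (plus strand) held 1 match, 39 bases before the start. PCNA at chr20:5126573-5126872 (minus strand) held 1 match, 59 bases before the start, and CDC25A at chr3:48188368-48188667 (minus strand) held 1, 44 bases before the start. In TYMS and PCNA the letters lie on the opposite strand and appear as their reverse complement. A match is a description of the letters and not a binding site.
MCM6: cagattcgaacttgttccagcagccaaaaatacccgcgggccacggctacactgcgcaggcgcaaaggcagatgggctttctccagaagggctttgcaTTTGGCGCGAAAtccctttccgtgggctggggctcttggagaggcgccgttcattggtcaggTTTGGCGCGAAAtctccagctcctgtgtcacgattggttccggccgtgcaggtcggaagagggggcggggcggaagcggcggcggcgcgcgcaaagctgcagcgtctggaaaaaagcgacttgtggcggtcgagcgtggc
TYMS: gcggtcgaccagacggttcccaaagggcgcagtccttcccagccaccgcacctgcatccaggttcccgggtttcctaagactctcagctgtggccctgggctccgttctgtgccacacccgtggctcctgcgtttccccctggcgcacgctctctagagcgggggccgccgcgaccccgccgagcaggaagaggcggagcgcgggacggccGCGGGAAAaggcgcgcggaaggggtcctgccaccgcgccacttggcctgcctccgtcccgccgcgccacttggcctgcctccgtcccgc
PCNA: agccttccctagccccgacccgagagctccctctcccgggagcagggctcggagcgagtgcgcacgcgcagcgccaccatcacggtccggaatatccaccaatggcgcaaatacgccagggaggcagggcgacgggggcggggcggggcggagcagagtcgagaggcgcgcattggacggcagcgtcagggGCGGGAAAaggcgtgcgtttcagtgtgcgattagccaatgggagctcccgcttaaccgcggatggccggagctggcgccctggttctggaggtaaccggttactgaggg
CDC25A: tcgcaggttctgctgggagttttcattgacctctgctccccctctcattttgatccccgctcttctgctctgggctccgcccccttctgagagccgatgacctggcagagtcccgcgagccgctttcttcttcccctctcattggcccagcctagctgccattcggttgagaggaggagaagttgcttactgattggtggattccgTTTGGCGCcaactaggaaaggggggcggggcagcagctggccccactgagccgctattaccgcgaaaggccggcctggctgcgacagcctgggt

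The MCM genes encode the ring-shaped replicative helicase, and all 7 measured here, MCM10 included, had lower CPM in each shKLF5 library than in scramble. Their median log2 fold change was -0.62 (from -1.26 to -0.28). MCM6 (ENSG00000076003; GRCh38 chromosome 2, 135839626 to 135876426) and GINS2 stood lowest of the 36 genes. MCM6 had 947 and 884 counts in the shKLF5 libraries against 1647 in scramble, which is 25.9 ± 0.71 CPM (SD, n = 2) in shKLF5 and 62.0 CPM in scramble. Both shKLF5 libraries were close to each other, 2.34-fold and 2.44-fold below scramble. The log2 fold change stood at -1.26 (SE 0.35, 95% confidence interval -2.07 to -0.45), and the adjusted p was 0.474 by edgeR's quasi-likelihood test. MCM6 also stayed lower in deposited TPM, with 8.97 and 8.04 TPM in shKLF5 and 15.3 TPM in scramble. MCM3, another subunit of the ring and the most counted of them, had 6188 and 7535 counts in the shKLF5 libraries against 9741 in scramble, or 195 ± 31.1 CPM (SD, n = 2) against 366 CPM, and a log2 fold change of -0.91 (SE 0.35). MCM5 stood at -0.67 (SE 0.35), with 37.1 and 41.4 TPM in the shKLF5 libraries and 44.5 TPM in scramble. MCM4 stood at -0.61 (SE 0.34), with 5324 and 5109 counts in the shKLF5 libraries and 5979 in scramble.

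The remaining ring subunits were nearer to scramble. MCM7 stood at -0.38 and MCM2 at -0.28, and their counts were not lower throughout: MCM2 had 4366 and 5283 counts in the shKLF5 libraries and 4425 in scramble, and MCM7 had 4583 and 5715 in the shKLF5 libraries and 5064 in scramble. MCM10, which helps to activate the helicase at origins, had 644 and 775 counts in the shKLF5 libraries and 825 in scramble, with a log2 fold change of -0.62 (SE 0.39). Within the summed counts of MCM2 to MCM7, the share of MCM6 was 4.06% and 3.30% in the shKLF5 libraries, against 5.61% in scramble. That of MCM3 was 26.5% and 28.2% in the shKLF5 libraries, against 33.2% in scramble. The share of MCM2 was 18.7% and 19.8% in the shKLF5 libraries, against 15.1% in scramble, and that of MCM7 19.6% and 21.4%, against 17.3%. The MCM5 share was 8.26% and 8.31%, against 8.49%. MCM4 went opposite ways, with 22.8% and 19.1% in the shKLF5 libraries and 20.4% in scramble. MCM6 and MCM3 held a smaller part of the total in both shKLF5 libraries and MCM2 and MCM7 a larger one.

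**Figure D3:**
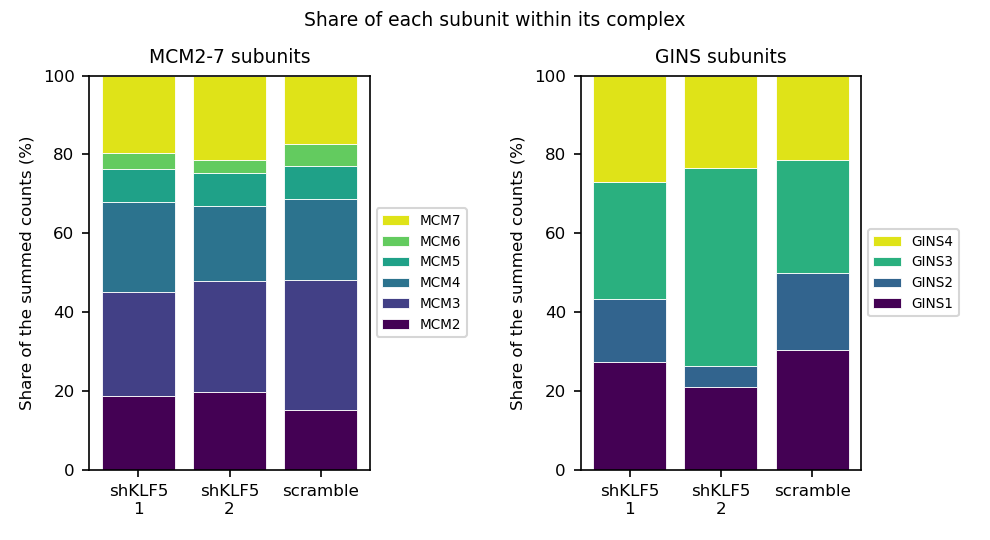
Share of each subunit in the summed estimated counts of its complex (y axis, %), for MCM2 to MCM7 (left) and GINS (right), in shKLF5 libraries 1 and 2 and in scramble. MCM6 and MCM3 took smaller shares in both shKLF5 libraries than in scramble, and GINS3 took 50.2% of the GINS counts in shKLF5 library 2, against 28.8% in scramble.

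Origin licensing factors were close to scramble. CDC6, which loads the helicase together with CDT1, had 736 and 1011 counts in the shKLF5 libraries and 824 in scramble, with a log2 fold change of -0.32 (SE 0.40). CDT1 stood at -0.18 (SE 0.39), with 684 and 740 counts in the shKLF5 libraries and 610 in scramble. CDC45, part of the active helicase, had 1156 and 1286 counts in the shKLF5 libraries and 1180 in scramble, and stood at -0.36 (SE 0.37). All 3 were lower by value in both libraries after TMM scaling, and each interval of the difference included 0, the CDT1 one running from -1.08 to 0.71. The scramble count lay between those of the shKLF5 libraries for CDC45 and CDC6 and below both for CDT1, so before scaling none of the 3 was lower in both. In deposited TPM, CDT1 was 8.73 and 9.34 in the shKLF5 libraries and 12.1 in scramble. Of these, the retained-intron transcript CDT1-202 held 0.02 and 1.34 TPM in the shKLF5 libraries and 4.88 TPM in scramble. The coding transcript CDT1-201 went the other way, with 7.26 and 7.40 TPM in the shKLF5 libraries and 5.24 TPM in scramble.

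The GINS complex, the 4-subunit partner of MCM and CDC45, was not uniform. GINS2 had 429 and 165 counts in the shKLF5 libraries and 531 in scramble, or 8.36 ± 5.11 CPM (SD, n = 2) against 19.97 CPM, and a log2 fold change of -1.26 (SE 0.56). The single-library values were -0.74 and -2.06, so the gap between the shKLF5 libraries was wider than the difference of library 1 from scramble. GINS1 stood at -0.67 (SE 0.38), with 735 and 639 counts in the shKLF5 libraries and 824 in scramble. GINS4 had 20.3 and 20.5 CPM in the shKLF5 libraries and 21.8 CPM in scramble, a log2 fold change of -0.09 (SE 0.39). GINS3 (ENSG00000181938; chromosome 16, 58295080 to 58406144) went opposite ways: it had 790 and 1533 counts in the shKLF5 libraries and 783 in scramble, and stood at -0.42 in library 1 and 0.58 in library 2. Its share of the GINS counts was 29.5% in library 1 and 50.2% in library 2, against 28.8% in scramble, while that of GINS2 was 16.01% and 5.41%, against 19.5%. Part of the GINS3 reads lay in short transcripts: GINS3-209, of 210 bases, had 10 and 19 counts in the shKLF5 libraries and 15 in scramble but 20.4% to 31.8% of the gene's TPM, so the TPM of GINS3 is less certain than its counts.

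The 4 polymerase and primase genes had lower CPM in each shKLF5 library than in scramble, and their median log2 fold change was -0.58. POLA1, the catalytic subunit of polymerase alpha, had nearly equal values in the shKLF5 libraries, with 835 and 840 counts against 1207 in scramble. That is 23.7 ± 0.61 CPM (SD, n = 2) in shKLF5 and 45.4 CPM in scramble, and a log2 fold change of -0.94 (SE 0.36, adjusted p 0.504 by edgeR's quasi-likelihood test). PRIM1, the catalytic primase subunit, stood at -0.66 (SE 0.40), with 505 and 576 counts in the shKLF5 libraries and 644 in scramble. POLE2, an accessory subunit of polymerase epsilon, stood at -0.50 on 186 and 199 counts in the shKLF5 libraries and 205 in scramble. POLD1, the catalytic subunit of polymerase delta and the highest of the group in mean TPM, had 1880 and 1740 counts in the shKLF5 libraries and 1799 in scramble, and stood at -0.40 (SE 0.35).

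PCNA was lower by value than its loader in the group of clamp, clamp loader, single-strand binding and flap removal genes. PCNA (ENSG00000132646; chromosome 20, 5114953 to 5126626), the ring that holds polymerases on DNA, had 1730 and 2458 counts in the shKLF5 libraries and 3252 in scramble, or 59.5 ± 15.9 CPM (SD, n = 2) in shKLF5 and 122 CPM in scramble. On the log2 scale PCNA stood at -1.04 (SE 0.37), from -1.34 in library 1 and -0.79 in library 2. RFC4, a clamp loader subunit, stood at -0.57 (SE 0.35), with 3029 and 3513 counts in the shKLF5 libraries and 3656 in scramble, and it overlaps the far more abundant EIF4A2 on the opposite strand. RFC3 stood at -0.36, FEN1, the flap endonuclease of Okazaki fragments, at -0.40, and RPA2, a subunit of the single-strand binding protein, at -0.22. RPA2 counts were 841 and 945 in the shKLF5 libraries and 784 in scramble, higher in both before scaling. All 5 genes of the group were less low in library 2 than in library 1.

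Nucleotide supply was the group with the lowest median, -1.07, and each of its 3 genes had an unadjusted p under 0.05. TYMS (ENSG00000176890; chromosome 18, 657604 to 673578), thymidylate synthase, was the most abundant of the 36 in TPM. It had 314 and 366 TPM in the shKLF5 libraries and 517 TPM in scramble, from 11823 and 13534 counts against 20369. TYMS stood at -1.09 on the log2 scale (SE 0.35, 95% confidence interval -1.89 to -0.29), and the adjusted p was 0.474 by edgeR's quasi-likelihood test. ENOSF1 overlaps TYMS on the opposite strand. Since use of strand is not given, reads from any sequence found in transcripts of both genes may not be told apart. How much of the TYMS counts this concerns was not tested. ENOSF1 had 12455 and 18753 counts in the shKLF5 libraries and 12005 in scramble, before any scaling. RRM1 and RRM2, the large and small subunits of ribonucleotide reductase, were lower in library 2 than in library 1. RRM1 had 4376 and 2925 counts in the shKLF5 libraries and 5342 in scramble, and stood at -0.96 (SE 0.37). RRM2 had 1963 and 1092 counts in the shKLF5 libraries and 2403 in scramble, or 43.1 ± 16.5 CPM (SD, n = 2) against 90.4 CPM, and stood at -1.07 (SE 0.42), with -0.72 in library 1 and -1.52 in library 2. The share of RRM2 in the counts of both subunits was 31.0% and 27.2% in the shKLF5 libraries, against 31.0% in scramble.

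Chromatin assembly genes followed the median of the set. CHAF1B and CHAF1A, subunits of the factor that deposits histones behind the fork, stood at -0.62 (SE 0.36) and -0.39 (SE 0.34). CHAF1B had 1263 and 1094 counts in the shKLF5 libraries and 1365 in scramble, and CHAF1A had 3004 and 3192 in the shKLF5 libraries and 3064 in scramble. SLBP, which binds the stem-loop of histone mRNAs, had 1897 and 1297 counts in the shKLF5 libraries and 1712 in scramble, and stood at -0.51 (SE 0.38), with -0.28 in library 1 and -0.79 in library 2.

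**Figure D4:**
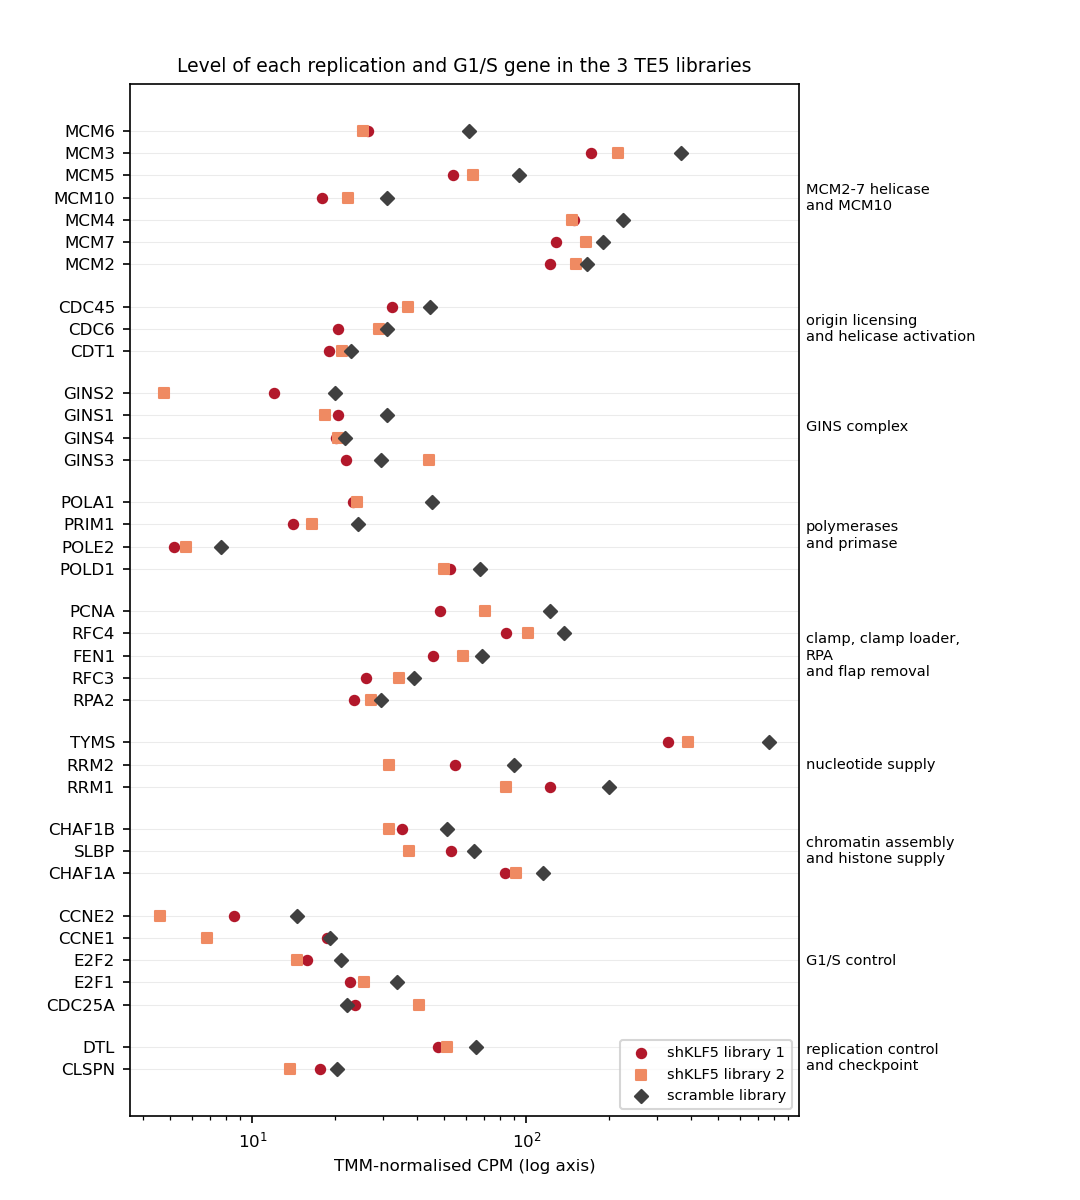
TMM-normalised CPM (log x axis) of each of the 36 genes, by role group, in shKLF5 library 1 (circles), shKLF5 library 2 (squares) and scramble (diamonds). The scramble point lies to the right of both others for 34 genes, and the exceptions are GINS3 and CDC25A.

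Regulators of the G1/S transition differed most between the shKLF5 libraries of the role groups listed, by a median of 0.77 on the log2 scale, and held the 1 gene higher in both. CDC25A (ENSG00000164045; chromosome 3, 48157146 to 48188402), the phosphatase that activates CDK2, had 846 and 1404 counts in the shKLF5 libraries and 590 in scramble, or 32.0 ± 11.9 CPM (SD, n = 2) in shKLF5 and 22.2 CPM in scramble. CDC25A stood at 0.53 on the log2 scale (SE 0.45, 95% confidence interval -0.51 to 1.57). Library 1, at 0.09, lay near scramble, and library 2, at 0.86, above it. It was higher in both libraries also in deposited TPM, with 10.9 and 16.8 TPM in shKLF5 and 7.06 TPM in scramble. Cyclin E is encoded by CCNE1 and CCNE2. CCNE1 had 671 and 238 counts in the shKLF5 libraries and 512 in scramble, and stood at -0.04 in library 1 and -1.48 in library 2. CCNE2 had 308 and 160 counts in the shKLF5 libraries and 386 in scramble, and stood at -0.75 and -1.64, with a fitted value of -1.14 (SE 0.50). Summed, both cyclin E genes had 979 and 398 counts in the shKLF5 libraries, against 898 in scramble.

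E2F1 and E2F2, the activator E2F genes of the set, were close to each other. E2F1 had 817 and 885 counts in the shKLF5 libraries and 894 in scramble, and stood at -0.48 (SE 0.37), and E2F2 stood at -0.48 (SE 0.40). In deposited TPM, E2F1 was 11.7 and 12.2 in the shKLF5 libraries and 12.3 in scramble, a smaller difference than after TMM scaling. The share of E2F1 in the summed counts of the pair was 59.1% and 63.7% in the shKLF5 libraries, against 61.4% in scramble. DTL, the adaptor through which CDT1 is degraded in S phase, had 1702 and 1779 counts in the shKLF5 libraries and 1740 in scramble, and CLSPN, which relays the fork checkpoint to CHK1, had 634 and 476 and 543. They stood at -0.41 (SE 0.35) and -0.38 (SE 0.41).

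The shKLF5 libraries differed from each other by a median of 0.25 on the log2 scale over the 36 genes, against 0.41 over all genes tested and 0.33 over those whose mean CPM was 5 or more. Library 2 was the lower of the pair for 13 of the 36, among them RRM1, RRM2, SLBP, GINS2, CCNE1 and CCNE2. The other 23 were lower in library 1, among them every gene of the clamp group and of the licensing group. The gap passed 0.7 for 6 genes, CCNE1 (-1.44 for library 2 minus library 1), GINS2 (-1.32), GINS3 (0.998), CCNE2 (-0.89), RRM2 (-0.80) and CDC25A (0.77). MCM6 (-0.06) and POLA1 (0.05) were among the closest.

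**Figure D5:**
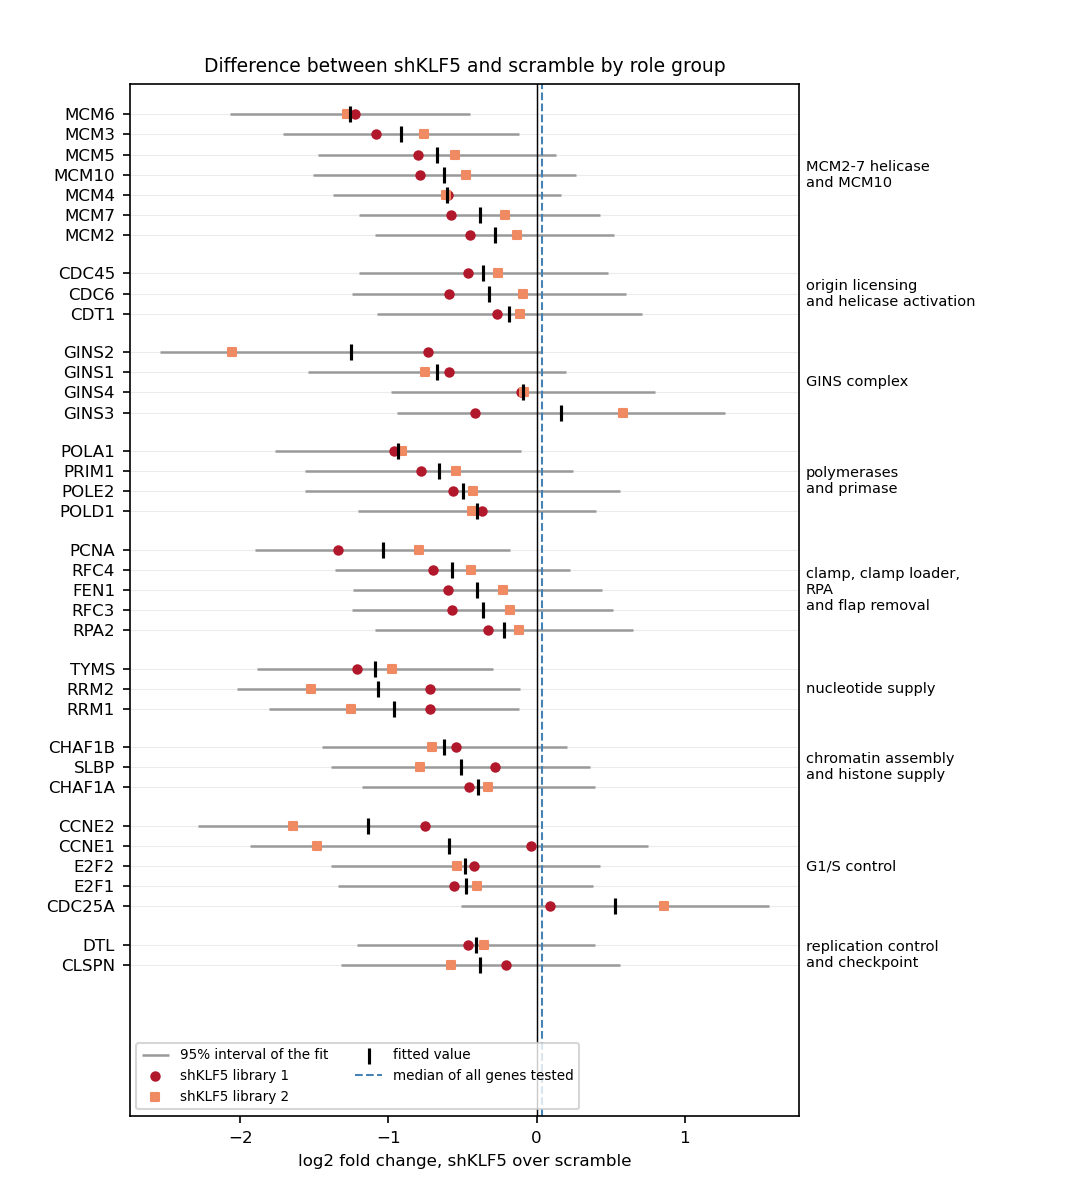
Log2 fold change (shKLF5 over scramble, x axis) of the 36 genes by role group, for shKLF5 library 1 (circles), library 2 (squares) and the fit over both (black ticks) with its 95% interval (grey lines); the dashed line is the median of all genes tested. Intervals of MCM6, MCM3, POLA1, PCNA, TYMS, RRM1 and RRM2 end below 0, before any adjustment for the number of genes tested.

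Transcripts behind the gene totals were mostly protein-coding when summed over the set, but not in every gene. By gene, the median coding share of TPM was 87.5% and 83.4% in the shKLF5 libraries, against 87.5% in scramble. MCM4 had 32.1% and 27.9%, against 30.5%, and POLE2 had 43.4% and 30.1%, against 48.4%. MCM4-204, of 366 bases and annotated for nonsense-mediated decay, held 24.9% to 31.6% of the MCM4 TPM. Coding transcripts held 73.3% and 69.9% of the summed TPM of the 36 genes in the shKLF5 libraries, against 75.6% in scramble, and over all matched transcripts the shares were 81.0% and 81.2%, against 82.2%. MCM6-201, the main MCM6 transcript, held 99.0% and 98.8% of the gene's TPM in the shKLF5 libraries and 96.7% in scramble, so the MCM6 value is that of its coding mRNA. TYMS-203 had 9720 and 10125 counts in the shKLF5 libraries and 16914 in scramble. PCNA-201 had 1650 and 2335 counts in the shKLF5 libraries and 3009 in scramble. RRM1-201 had 3965 and 2594 counts in the shKLF5 libraries and 5178 in scramble, and RRM2-201 had 1725 and 917, against 2125. In RRM2 the retained-intron transcript RRM2-207 had 68 and 21 counts in the shKLF5 libraries and 144 in scramble.

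For some genes the coding transcript and the gene total differed, and CDT1 and MCM7 are named here after their values were seen. The coding transcript CDT1-201 had 666 and 708 counts in the shKLF5 libraries and 499 in scramble, while the retained-intron transcript CDT1-202 had 0 and 24, against 86. MCM7-201, the coding form, had 2340 and 2963 counts in the shKLF5 libraries and 3051 in scramble, and MCM7-210, a retained-intron form, had 2005 and 2382, against 1823. POLA1-202 had 829 counts in library 1 and 446 in library 2, against 983 in scramble, although the gene totals of the shKLF5 libraries were nearly equal. Estimated counts are divided among transcripts by the authors' software, so these splits are less certain than the gene totals. With gene totals built from protein-coding transcripts only, 28 of 36 genes were lower in both libraries, against 36.5% of all genes, with a median log2 fold change of -0.40.

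Other genes of the pathway, 77 in a list drawn up by function, lay less far from scramble by their median. This list too was drawn up with earlier results of these data known. Of these 53 (68.8%) had lower CPM in each shKLF5 library than in scramble and 5 had higher CPM in each, while for 19 the shKLF5 libraries lay on either side of scramble. Over all genes tested the shares were 36.5% lower and 37.9% higher, and 50.8% were lower among genes at a mean CPM of 5 or more. The median of the 77 was -0.39. After adjustment 0 passed edgeR's quasi-likelihood test and 0 passed DESeq2, and 5 were lower and 0 higher at an unadjusted p under 0.05 (6.49%, against 3.5% of all genes lower and 5.08% of those at a mean CPM of 5 or more). SKP2, which marks the CDK inhibitor p27 for degradation, had 2249 and 1864 counts in the shKLF5 libraries and 2949 in scramble, and stood at -0.93 (SE 0.35). TFDP1, the partner of E2F factors, had 2382 and 1120 counts in the shKLF5 libraries and 2889 in scramble, with a fitted value of -1.14. Others with a low p were the histone chaperone ASF1A at -1.03, the folate enzyme SHMT1 at -0.93 and TIMELESS, of the fork protection complex, at -0.75. The 10 origin recognition and licensing genes had a median of -0.51, 8 of them lower in both libraries, and the 8 further polymerase and primase genes a median of -0.12. The 7 further nucleotide supply genes had a median of -0.45, 4 of them lower in both, against -1.07 for TYMS, RRM1 and RRM2. The 5 genes of the S phase checkpoint group had a median of -0.04, 2 of them lower in both.

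The 5 higher in both, which are named for that after their values were seen, were E2F7, POLD4, PRIM2, WEE1 and ORC4. E2F7, a repressor E2F, had 3005 and 4444 counts in the shKLF5 libraries and 1638 in scramble, and stood at 0.78 (SE 0.41), opposite in sign to E2F1 and E2F2. The other E2F genes of the wider list stood at -0.12 (E2F3), -0.02 (E2F4), -0.82 (E2F5), 0.15 (E2F6) and -0.63 (E2F8). POLD4, a small subunit of polymerase delta, had 611 and 521 counts in the shKLF5 libraries and 255 in scramble, and stood at 0.74 (SE 0.43). PRIM2 rested on 17 and 18 counts in the shKLF5 libraries and 9 in scramble. MKI67 and CDKN1A lie outside both lists and outside the rule for naming genes, and edgeR's quasi-likelihood test called neither. MKI67, a proliferation marker, had 7044 and 5904 counts in the shKLF5 libraries and 10425 in scramble, with a log2 fold change of -1.10 (SE 0.34). CDKN1A, the CDK inhibitor p21, had 6451 and 4718 counts in the shKLF5 libraries and 2843 in scramble, with a log2 fold change of 0.56 (SE 0.37).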

How the data were processed

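Per the labels, RNA-seq libraries (TruSeq) of TE5 total RNA were read on a HiSeq. The submitters' processing notes name kallisto, DESeq2 and hg19, with no version. The deposited tables, 1 per library, give estimated counts per transcript, not always whole and not normalised, and TPM, which the authors' software scaled to 1000000 per library, per the file headers. Other deposited columns are transcript lengths. Neither the index nor the strand setting is given in the sources used here.

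Of 196354 transcripts 92.6% matched GENCODE 29 by identifier; the rest held 3.05% to 3.42% of counts. Gene coordinates are GRCh38 from GENCODE 29. Estimated counts were summed per gene and rounded. edgeR 4.0.16 (R 4.3.3) ran filterByExpr, TMM (factors 1.11 and 1.10 for shKLF5 libraries 1 and 2, 0.82 for scramble) and, on 20629 genes, the quasi-likelihood F test (shKLF5 over scramble). Each gene had 1 residual degree of freedom, beside 6.86 prior degrees of freedom drawn from all genes. The common biological coefficient of variation was 32.9%. The test was tested on simulated data with a smaller spread than that fitted here and larger fold changes than those fitted for the set. How well it finds changes of the size given here was not tested. SE is the log2 fold change over the square root of F. Single-library values used a prior count of 2. SD is over 2 shKLF5 libraries; reads have no molecular identifiers, so the counting error is that of reads. Alternatives used limma 3.58.1 and DESeq2 1.42.0. Of the genes, 13 of the 36 overlap another tested gene, 11 on the opposite strand, and their values are less certain.

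Members and lists were chosen with earlier results of these data known. Values per library were to be given for the 2 lowest p and the highest mean TPM of each role group. They were also to be given for genes not lower in both libraries and for gaps over 0.7. Others are named to complete their complex, and MKI67 and CDKN1A are named outside the rule. From the wider list, the 6 lowest p and genes higher in both at an unadjusted p under 0.05, of which there were 0, were to be named. 1 gene that this rule names is not reported here. Markers of 4 cell types were listed; PECAM1 was not analysed here.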

Additional observations from a re-analysis of the deposited data

How the results depend on the processing

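Calls were 0 of 36 under each of the 12 processings with a test, while the calls over all genes were 0, except 21 with edgeR's legacy fit and 116 with DESeq2. The count lower in both libraries was 34 by TMM, 17 by library size alone and 17 by either TPM setting; in the others it was 27 to 34. For the 77 further genes it was 53 by TMM, 25 by library size alone and 21 by either TPM setting. It was 43 with an offset for abundance and 55 with no filter. At a mean CPM of at least 5 it was 42 of 74, and with protein-coding transcripts only 45 of 76. Over all genes tested, the share lower in both was 36.5% by TMM, 12.5% by library size alone and 11.3% by either TPM setting. That share was 35.4% with the offset, 30.1% with no filter, 35.5% with the CPM minimum and 36.5% with coding transcripts only. The median of the set (-0.51) was -0.077 by library size alone, -0.078 and -0.080 by TPM with a pseudocount of 1 and 0.1, -0.48 without mitochondrial genes, -0.33 with an offset for abundance, -0.55 with no filter, -0.33 at a mean CPM of at least 5 and -0.40 with protein-coding transcripts only. Its distance from the median of all genes (-0.54) was -0.36, -0.88, -0.35 and -0.43 with the offset, no filter, the CPM minimum and coding transcripts, and -0.34 and -0.51 by TPM with a pseudocount of 1 and 0.1. Leaving out either shKLF5 library gave medians of -0.54 to -0.51 (distances -0.57 to -0.54), 34 to 35 genes lower, and 55 to 68 of the 77 further genes lower, as values with no test. Relative to the median of all genes, single members turned sign in 8 cases: GINS4 at 0.023, 0.064, 0.088 and 0.0026 (offset, CPM minimum, TPM with pseudocount 1, coding transcripts), GINS3 at -0.20 (no filter) and -0.41 (without shKLF5 replicate 2, against 0.55 without replicate 1), MCM2 at 0.052 (TPM with pseudocount 1) and CDT1 at 0.11 (coding transcripts); the cause was not tested. No paired analysis was possible because the scramble group is 1 library. Counts of the set ran from 160 to 20369 per gene and library, and what limited the calls was not tested.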
